A study of Homo sapiens with 12 samples.

Results

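FOXA1, FOXA2, FOXA3, HNF4A, HNF4G, GATA4, GATA6 and PDX1 are 8 transcription factors of the foregut and pancreatic lineage, and were taken from the deposited expression table by gene symbol, where all 8 were found among 23346 genes. Expression was measured by RNA-seq of polyA-selected RNA in 12 libraries from 2 established human pancreatic ductal adenocarcinoma cell lines, SW1990 and CFPAC-1. Each line was grown as a monolayer, stained with GCTM-5, a monoclonal antibody to a cell surface and secreted glycoprotein complex that carries the CA 19-9 epitope, and sorted so that only strongly stained (positive) and unstained (negative) cells were kept. The 4 groups were SW1990 GCTM-5 negative, SW1990 GCTM-5 positive, CFPAC-1 GCTM-5 negative and CFPAC-1 GCTM-5 positive cells, with 3 libraries each. No group carried a drug treatment or an engineered allele, each line is a single tumour's descendants, and the 3 libraries of a group came, by the study's methods, from triplicate sorts. Whether the sorts came from separate cultures is not stated, so that the p-values measure the spread between these sorts. The comparisons ask whether cells that differ in the surface antigen also differ in the factors that specify foregut endoderm and pancreas, and whether the 2 lines do so alike.

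FOXA proteins are forkhead factors that can bind their sites in closed chromatin, and in the embryo FOXA1 and FOXA2 prepare foregut endoderm for liver and pancreas development. GATA4 and GATA6 are zinc finger factors of the same progenitors, HNF4A and HNF4G are orphan nuclear receptors of hepatic, gut and pancreatic epithelium, and PDX1 is the homeodomain factor required for the pancreas to form. In pancreatic adenocarcinoma, GATA6, HNF4A and PDX1 are known as factors of the better differentiated, classical tumour subtype.

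Expression is given as RPKM, reads scaled to gene length in kilobases and to the size of the library, which is a level per length and can be set beside that of another gene. Libraries held 9969697 (CFPAC-1 positive replicate 3) to 26159330 reads (CFPAC-1 positive replicate 1), recovered from the RPKM steps, and the members rested on 0 to 1988 reads per library. Ductal markers (12 genes, among them KRT19, KRT8 and EPCAM) summed to 1682 to 2000 RPKM in SW1990 negative and 4659 to 5074 in SW1990 positive libraries. In CFPAC-1 they summed to 6317 to 7122 RPKM in negative and 7138 to 8761 RPKM in positive libraries. CFTR was at 0 in all SW1990 libraries and at most at 0.0869 RPKM in CFPAC-1. Acinar markers (11 genes) summed to under 1 RPKM in every library. Endocrine markers (9 genes) summed to 370 to 449 RPKM in SW1990 negative and 51.1 to 103 in SW1990 positive libraries and to at most 1.61 RPKM in CFPAC-1, nearly all of it in SW1990 from SCG2 (means of 401 and 80.8 RPKM), with the hormone genes GCG, SST and IAPP at 0 in all 12 libraries. Hepatocyte markers (9 genes) summed to 26.9 to 27.1 and 13.6 to 17.5 RPKM in SW1990 negative and positive libraries and to 244 to 263 and 56.8 to 86.1 RPKM in those of CFPAC-1, mostly from APOA1 and SERPINA1 in SW1990 and from SERPINA1 and FGB in CFPAC-1, with TTR at 0 throughout. Stromal fibroblast markers (9 genes) summed to 14.2 to 24.9 RPKM in SW1990 negative and 4.96 to 6.40 in SW1990 positive libraries, against 2.99 to 3.17 and 2.92 to 3.51 RPKM in CFPAC-1 negative and positive libraries, with COL3A1 and DCN at 0 in all but the SW1990 negative group. Blood and endothelial markers (8 genes) summed to 48.5 to 64.6 and 16.6 to 34.4 RPKM in SW1990 negative and positive libraries, with CD3E, MS4A1 and HBB at 0 in both, and to 110 to 127 and 109 to 163 RPKM in CFPAC-1, of which CD68 made up nearly all in CFPAC-1 (means of 120 and 138 RPKM) and most in SW1990 (42.0 and 21.7 RPKM). CDH5, of the same list, had means of 15.6 and 1.33 RPKM in SW1990 negative and positive cells, against 0 and 0.00309 RPKM in CFPAC-1. Several of the marker sums moved with GCTM-5 status, and their part in the results was not tested.

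The members did not move as a block with the antigen. A gene was called higher or lower where it differed by over 2-fold with an unadjusted p under 0.01 in limma's moderated test on log2(RPKM + 0.1), and adjusted p-values (Benjamini-Hochberg) were taken over all 16236 genes with a mean of at least 0.1 RPKM, among them all 8 members. In SW1990, FOXA2 was called higher in positive cells (1 of 8 members, against 4.59% of all genes tested) and GATA4 was called lower (1 of 8, against 7.48%). In CFPAC-1, HNF4A was called higher (1 of 8, against 5.65%), and FOXA3 and HNF4G were called lower (2 of 8, against 4.13%). The median log2 difference over the 8 members was 0.39 in SW1990 and 0.31 in CFPAC-1, beside -0.04 and 0.05 over all genes. FOXA1, GATA6 and PDX1 were called in neither line. In bulk RNA from sorted cells, fewer cells that express a gene and less RNA per cell cannot be told apart.

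**Figure D1:**
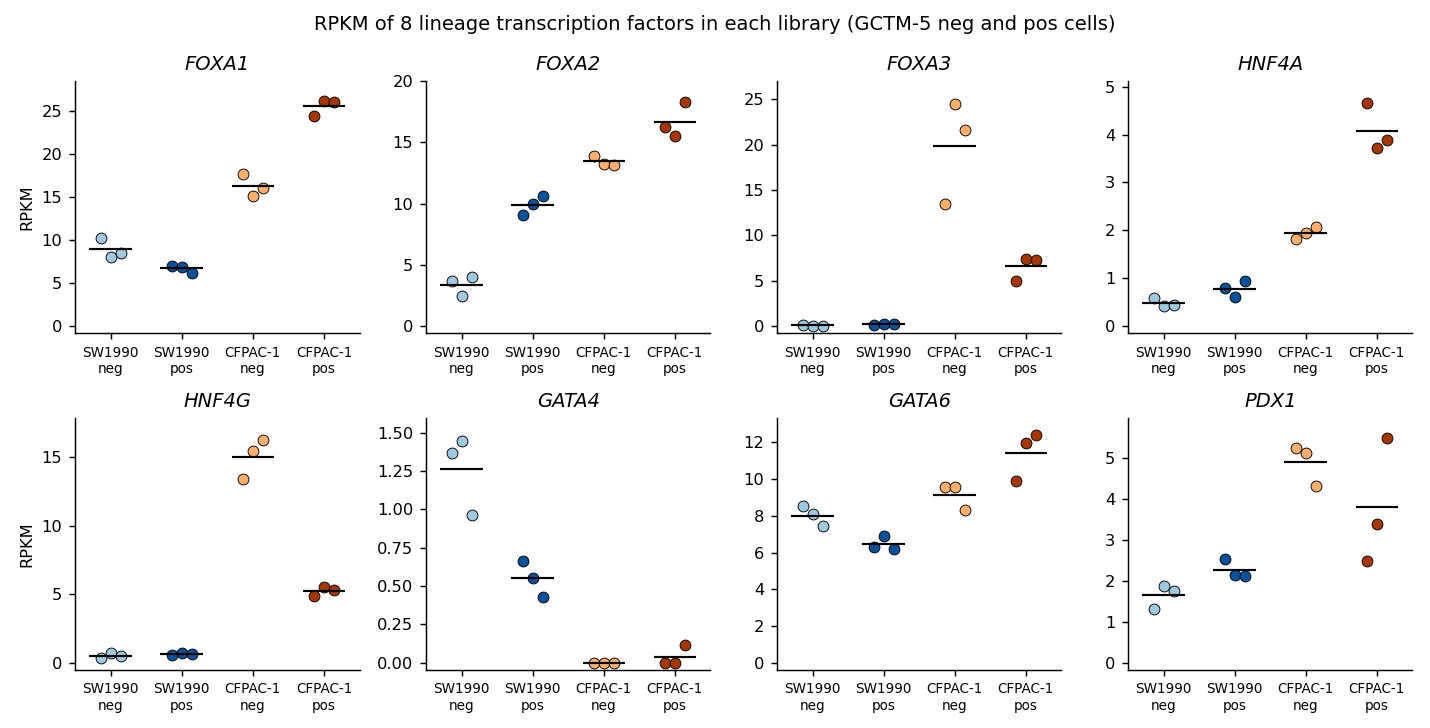
RPKM (vertical axis, one linear scale per gene) of the 8 members in each of the 12 libraries, by line and GCTM-5 status; points are libraries and horizontal bars are group means. FOXA2 is separated by GCTM-5 status in SW1990, HNF4G and FOXA3 are separated in CFPAC-1 in the opposite sense, and GATA4 is above 0 in only 1 of the 6 CFPAC-1 libraries.

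FOXA1 was the most abundant FOXA gene in 2 of the 4 groups. In SW1990 it stood at 10.2, 7.98 and 8.47 RPKM in the 3 negative libraries and at 6.99, 6.90 and 6.21 RPKM in the positive libraries. The CFPAC-1 negative libraries stood at 17.7, 15.1 and 16.0 RPKM, and the positive ones at 24.4, 26.1 and 26.1 RPKM. The groups did not overlap in either line, and positive cells were on the lower side in SW1990 and on the higher side in CFPAC-1. The log2 difference was -0.40 ± 0.11 (SE, limma adjusted p = 0.0161) in SW1990 and 0.65 ± 0.11 (adjusted p = 0.000896) in CFPAC-1, both short of the 2-fold threshold, with group means 1.33-fold lower and 1.57-fold higher. The order of the 4 groups was CFPAC-1 positive, CFPAC-1 negative, SW1990 negative, SW1990 positive, with no overlap between neighbours.

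FOXA2, which acts with FOXA1 in foregut endoderm and is needed for PDX1 expression in the developing pancreas, rose in SW1990 positive cells. Its RPKM was 3.65, 2.48 and 4.03 in SW1990 negative libraries and 9.08, 9.95 and 10.6 in positive libraries. Every positive library was thus over 2 times as high as every negative library. The mean was 2.92-fold higher, with a log2 difference of 1.54 ± 0.15 (limma adjusted p = 1.4e-05). In CFPAC-1, the 3 negative libraries stood at 13.9, 13.3 and 13.2 RPKM of FOXA2 and the positive ones at 16.3, 15.5 and 18.3 RPKM, above every SW1990 library. That log2 difference was 0.31 (95% interval -0.03 to 0.64, adjusted p = 0.139), so that a difference of the SW1990 size lay outside the interval. In SW1990 positive cells FOXA2 was the highest of the 8 members, at 9.89 ± 0.78 RPKM (SD, n = 3), whereas in SW1990 negative cells it came after FOXA1 and GATA6.

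FOXA3, the FOXA paralog best known from liver and gut, was near its detection limit in one line and among the highest members in the other. SW1990 libraries held 4, 2 and 2 FOXA3 reads in negative cells and 6, 8 and 6 reads in positive cells, or 0.0432 to 0.237 RPKM. In CFPAC-1 negative cells it stood at 13.4, 24.5 and 21.7 RPKM, and in CFPAC-1 positive cells at 5.00, 7.42 and 7.31 RPKM. The lowest CFPAC-1 negative library was above the highest positive library. FOXA3 fell in CFPAC-1 positive cells, with means 3.02-fold lower and a log2 difference of -1.56 ± 0.25 (limma adjusted p = 0.000778). In SW1990 the log2 difference was 0.80 ± 0.25 (adjusted p = 0.0351), on so few reads that it was called with a pseudocount of 0.01 (1.42) and with quantile normalization (1.09), and not with voom on recovered reads (1.41, adjusted p = 0.284).

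HNF4A has 2 start sites far apart on chromosome 20, an upstream one known from gut and pancreas and a downstream one known from liver. The deposited value is per gene and sums both, so that start site use was not measured. The 250 bases before each are shown because HNF4A was the member called higher in CFPAC-1 positive cells, together with those of FOXA3, which had the widest gap between the lines. Sequences are from RefSeq (GRCh38.p14 table) and matched the GRCh37 genome exactly once, at chr20:42984089-42984338 and chr20:43029629-43029878 for HNF4A and chr19:46367334-46367583 for FOXA3, all on the plus strand. Capitals mark a match, on either strand, to the GATA motif, spelled AGATAA.
HNF4A upstream: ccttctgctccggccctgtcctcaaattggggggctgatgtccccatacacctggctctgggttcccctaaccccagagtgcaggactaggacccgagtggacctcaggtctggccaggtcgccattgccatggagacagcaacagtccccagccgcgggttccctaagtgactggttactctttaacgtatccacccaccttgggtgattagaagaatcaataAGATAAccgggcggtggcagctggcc
HNF4A downstream: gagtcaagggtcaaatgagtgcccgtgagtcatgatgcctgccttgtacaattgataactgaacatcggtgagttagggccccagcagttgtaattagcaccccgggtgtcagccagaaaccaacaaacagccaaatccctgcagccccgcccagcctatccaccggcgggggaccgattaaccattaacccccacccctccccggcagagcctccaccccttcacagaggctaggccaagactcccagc
FOXA3: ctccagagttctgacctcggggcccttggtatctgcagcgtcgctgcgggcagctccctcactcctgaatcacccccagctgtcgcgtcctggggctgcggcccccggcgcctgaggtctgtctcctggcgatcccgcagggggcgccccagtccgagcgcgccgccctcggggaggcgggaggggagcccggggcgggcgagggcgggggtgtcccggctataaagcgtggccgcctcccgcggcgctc
The upstream HNF4A window held 1 AGATAA match, starting 26 bases before the start site. Of 35116 windows of the same length before RefSeq start sites, 9.17% held AGATAA on either strand. The forkhead motif TGTTTAC (2.98% of windows) and the HNF4 motif CAAAGTCC (1.02%) had no match in the windows of FOXA1, FOXA3, HNF4A and GATA6, the 4 members read. The FOXA3 window was 75.2% G and C with 28 CpG, against 58.4% and 8 CpG upstream and 58% and 8 CpG downstream in HNF4A, and a median of 58% and 11 CpG over all windows. The FOXA3 window lay inside the gene as GENCODE places it (from chr19:46367247), and so did the FOXA1 window in its gene. The RefSeq start sites used for these 2 members thus differ from the GENCODE gene starts. A match of letters is not a measured binding site.

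HNF4A was low in SW1990, at 0.583, 0.421 and 0.431 RPKM in negative and 0.800, 0.609 and 0.937 RPKM in positive libraries (28 to 61 reads). CFPAC-1 negative libraries stood at 1.82, 1.94 and 2.08 RPKM, and positive libraries at 4.66, 3.71 and 3.88 RPKM. Positive cells were above negative cells in every library of both lines. HNF4A rose in CFPAC-1 positive cells, with means 2.10-fold higher and a log2 difference of 1.03 ± 0.19 (limma adjusted p = 0.00182). The call stood close to the 2-fold line and was lost without CFPAC-1 negative replicate 1 (0.98), without CFPAC-1 positive replicate 1 (0.93), after centring each library on its median (0.93), after quantile normalization (0.97) and with a pseudocount of 1 (0.78). In SW1990 the log2 difference was 0.60 ± 0.19 (adjusted p = 0.0358), with an interval of 0.18 to 1.03.

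HNF4G, the paralog that binds the same sites as HNF4A, moved the other way in CFPAC-1. It stood at 13.4, 15.4 and 16.2 RPKM in CFPAC-1 negative and at 4.84, 5.54 and 5.32 RPKM in CFPAC-1 positive libraries, and the groups were far apart. HNF4G fell, with means 2.87-fold lower and a log2 difference of -1.50 ± 0.21 (limma adjusted p = 0.000343). The SW1990 negative libraries, at 0.309, 0.693 and 0.470 RPKM, overlapped the positive ones, at 0.554, 0.705 and 0.607 RPKM. The log2 difference between them was 0.34 (95% interval -0.13 to 0.80, adjusted p = 0.281). It was 0.10 without SW1990 negative replicate 1 and 0.58 without SW1990 negative replicate 2 (adjusted p = 0.0453). The calls of HNF4G and FOXA3 in CFPAC-1 and of FOXA2 in SW1990 held in all 22 alternative settings.

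GATA4 was read in SW1990 and hardly at all in CFPAC-1. SW1990 negative libraries stood at 1.37, 1.45 and 0.962 RPKM and positive libraries at 0.666, 0.553 and 0.431 RPKM, on 58 to 115 and 26 to 44 reads. The groups did not overlap. GATA4 fell in SW1990 positive cells, with means 2.29-fold lower and a log2 difference of -1.06 ± 0.33 (limma adjusted p = 0.0288). This call was lost without SW1990 negative replicate 1 (adjusted p = 0.0813), negative replicate 2 (-0.96, adjusted p = 0.0929), positive replicate 2 (-1.08, adjusted p = 0.0643) or positive replicate 3 (-0.93, adjusted p = 0.103), and with a pseudocount of 1 (-0.54) or 0.01 (-1.18) and with quantile normalization (-0.82). No read was counted in the 3 CFPAC-1 negative libraries, and 0, 0 and 4 reads were counted in the positive libraries, so no fold is given within CFPAC-1. A count of 0 allows up to 3 reads.

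GATA6, which is amplified in some pancreatic tumours, had the narrowest range of the 8 members. It stood at 8.52, 8.12 and 7.43 RPKM in SW1990 negative, 6.31, 6.91 and 6.17 in SW1990 positive, 9.58, 9.57 and 8.33 in CFPAC-1 negative and 9.89, 12 and 12.4 RPKM in CFPAC-1 positive libraries. The highest library was thus about 2 times the lowest. Positive cells lay below negative cells in SW1990 (log2 difference -0.31 ± 0.11, limma adjusted p = 0.0656) and above them in CFPAC-1 (0.31 ± 0.11, adjusted p = 0.0509), without overlap in either line and short of the 2-fold threshold. CFPAC-1 negative and SW1990 negative libraries overlapped in the order of the groups.

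PDX1 was at 1.32, 1.89 and 1.76 RPKM in SW1990 negative and 2.52, 2.15 and 2.13 RPKM in SW1990 positive libraries. The CFPAC-1 negative libraries held 5.25, 5.14 and 4.33 RPKM, and the positive ones 2.50, 3.40 and 5.50 RPKM. The CFPAC-1 positive libraries spanned the whole range of the negative ones, with the highest value in the shallowest library. The log2 difference was 0.44 (95% interval -0.09 to 0.97, limma adjusted p = 0.212) in SW1990 and -0.43 (-0.96 to 0.10, adjusted p = 0.191) in CFPAC-1. The CFPAC-1 value was -0.73 without CFPAC-1 positive replicate 3 (adjusted p = 0.0142) and -0.17 without CFPAC-1 positive replicate 1 (adjusted p = 0.604). CFPAC-1 negative, CFPAC-1 positive and SW1990 positive cells were neighbours whose libraries overlapped, and SW1990 negative cells were lowest.

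**Figure D2:**
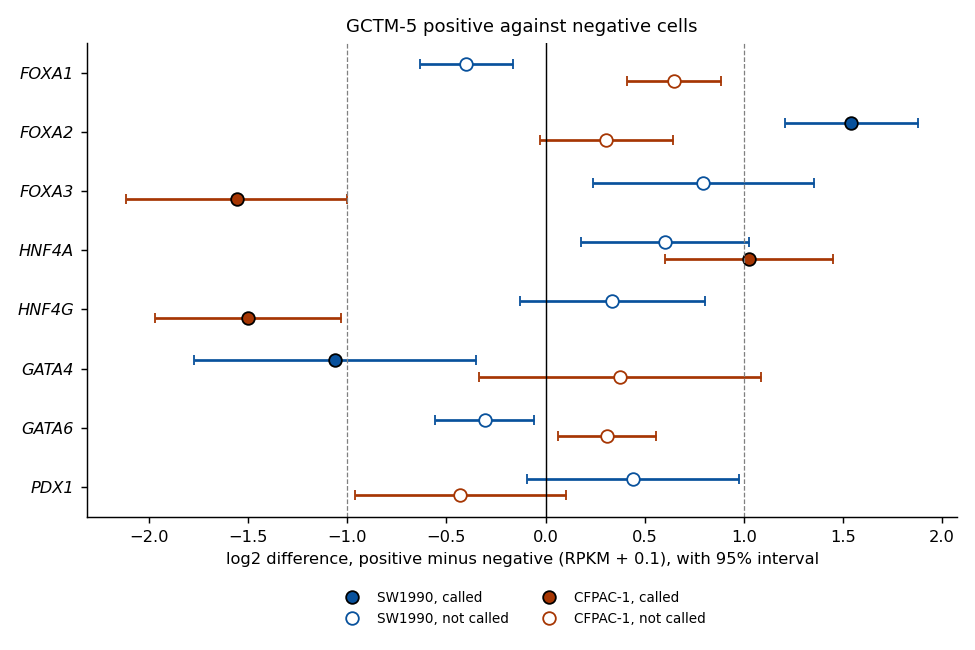
Log2 difference between GCTM-5 positive and negative cells (horizontal axis, RPKM + 0.1) for each member in SW1990 and CFPAC-1, with 95% intervals; filled points are called, open points are not, and dashed lines mark 2-fold. FOXA2 in SW1990 (1.54) and FOXA3 and HNF4G in CFPAC-1 (-1.56 and -1.50) lie farthest from 0.

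The difference between the 2 lines in their positive against negative change was itself tested, as an interaction in the same fit. It passed an adjusted p of 0.05 for 6 of 8 members: FOXA2, FOXA3 and HNF4G on the side of SW1990 (3 of 8, against 9.16% of all genes) and FOXA1, GATA4 and GATA6 on the side of CFPAC-1 (3 of 8, against 17.8%). The values were 2.35 ± 0.36 on the log2 scale for FOXA3 (adjusted p = 0.000613), 1.84 ± 0.30 for HNF4G (adjusted p = 0.00101) and 1.24 ± 0.22 for FOXA2 (adjusted p = 0.00148). For FOXA1 the value was -1.05 ± 0.15 (adjusted p = 0.000464). The differences of GATA4 (-1.44 ± 0.46, adjusted p = 0.0371) and GATA6 (-0.62 ± 0.16, adjusted p = 0.0146) were less secure: both were lost after centring each library on its median (adjusted p = 0.064 and 0.071) and after quantile normalization, that of GATA4 also with a pseudocount of 0.01 or the recovered reads in voom, and that of GATA6 where over 2-fold was asked for as well. The GATA4 difference was also lost without SW1990 negative replicate 1 (adjusted p = 0.0772) or 2 (0.0844), SW1990 positive replicate 2 (0.0669) or 3 (0.088), or CFPAC-1 negative replicate 1 (0.063), 2 (0.0684) or 3 (0.0684). CFPAC-1 libraries held 0 to 4 GATA4 reads, so that this difference rests on the SW1990 change and does not measure a GATA4 response in CFPAC-1. HNF4A (-0.42, 95% interval -1.02 to 0.17, adjusted p = 0.28) and PDX1 (0.87, 0.12 to 1.62, adjusted p = 0.0825) did not pass, and PDX1 passed without CFPAC-1 positive replicate 3 (1.17, adjusted p = 0.00682), with quantile normalization (1.16) and in voom on recovered reads (1.04). Over all genes this difference had a median of -0.15, and 1487 genes passed on the SW1990 side and 2887 on the CFPAC-1 side, against 1987 and 1988 after median centring.

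RPKM within a family shows how the paralogs shared the total. In SW1990 the FOXA total was 12.4 ± 1.75 RPKM (SD, n = 3) in negative and 16.8 ± 0.47 RPKM in positive cells. FOXA1 made up 72.2% ± 4.33 of it in negative and 40.0% ± 3.32 in positive cells, and FOXA2 27.3% ± 4.34 and 58.9% ± 3.33, so that the leading paralog differed between the sorted fractions. In CFPAC-1 the totals were 49.6 ± 4.07 and 48.8 ± 2.97 RPKM, and FOXA3 made up 39.6% ± 8.67 in negative and 13.4% ± 2.20 in positive cells, while FOXA1 made up 33.1% ± 5.56 and 52.4% ± 1.67. The HNF4 total was 17.0 ± 1.56 RPKM in CFPAC-1 negative and 9.32 ± 0.16 RPKM in CFPAC-1 positive cells, of which HNF4A was 11.5% ± 0.39 and 43.8% ± 4.70. In SW1990 the HNF4 total was 0.969 ± 0.13 and 1.40 ± 0.12 RPKM, with HNF4A at 50.3% ± 13.9 and 55.4% ± 7.86. GATA4 made up 13.5% ± 1.87 of the GATA4 and GATA6 total in SW1990 negative and 7.82% ± 1.55 in SW1990 positive cells. With 3 against 3 libraries the exact permutation test of a share cannot go below p = 0.1, which the FOXA1, FOXA2 and FOXA3 shares within each line and the HNF4A share in CFPAC-1 reached (adjusted p = 0.125 over 20 comparisons), whereas the HNF4A share in SW1990 gave p = 0.7.

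**Figure D3:**
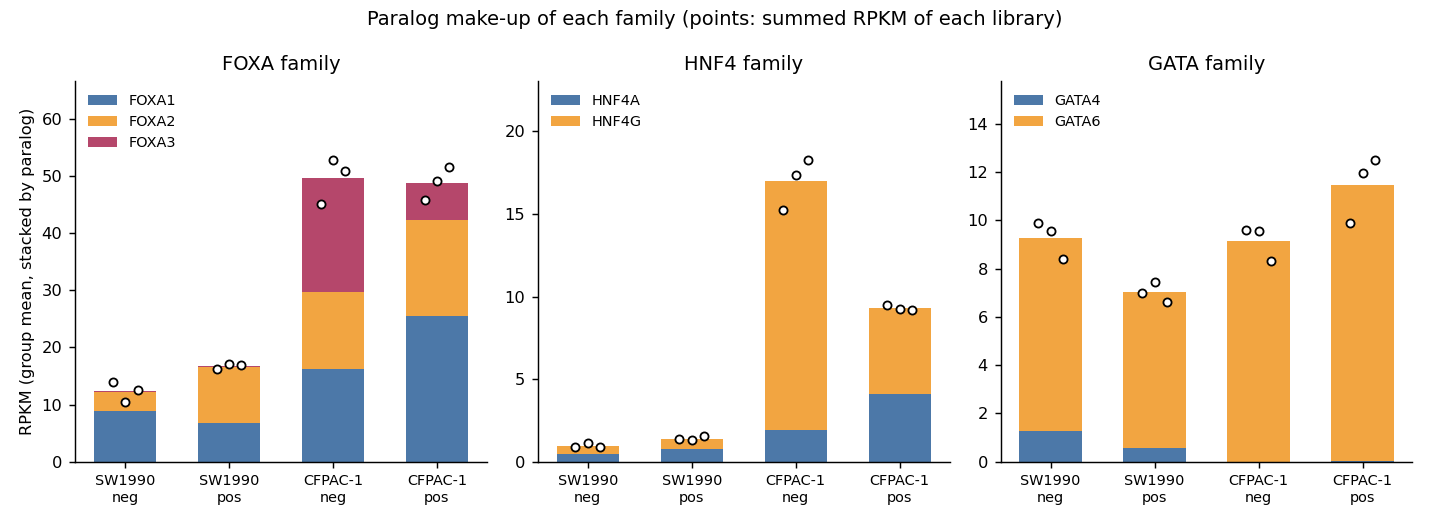
Group mean RPKM (vertical axis, from 0) of the FOXA, HNF4 and GATA families stacked by paralog, by line and GCTM-5 status; white points are the summed RPKM of each library. The FOXA total is alike in the CFPAC-1 fractions (49.6 and 48.8 RPKM) while its FOXA3 part shrinks, and the HNF4 total falls from 17.0 to 9.32 RPKM with the HNF4G part.

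Between the lines most members were lower in SW1990. In negative cells FOXA2, FOXA3, HNF4A, HNF4G and PDX1 were called lower in SW1990 than in CFPAC-1 (5 of 8, against 15.0% of all genes) and GATA4 higher (1 of 8, against 21.9%). In positive cells FOXA1, FOXA3, HNF4A and HNF4G were called lower (4 of 8, against 13.7%) and GATA4 higher (1 of 8, against 14.8%). The median over the members was -1.68 in negative and -1.36 in positive cells, beside 0.19 and 0.06 over all genes. Centring each library on its median removed the shift of 0.19 and brought FOXA1 in negative cells from -0.87 to -1.06, past the 2-fold threshold. With 1 line on each side, differences between SW1990 and CFPAC-1 cannot be told apart from those of the 2 tumours they came from, and the 2 comparisons share no libraries.

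FOXA3 differed by -6.88 ± 0.25 on the log2 scale in negative cells and -4.53 ± 0.25 in positive cells (limma adjusted p = 6.3e-10 and 2.85e-08). The size depends on the pseudocount, since SW1990 libraries held 2 to 8 FOXA3 reads. With a pseudocount of 0.01 the difference was -8.05 in negative and -5.06 in positive cells. With a pseudocount of 1 it was -4.25 and -2.66. HNF4G was 30.6-fold lower in SW1990 in negative and 8.41-fold lower in positive cells, by group means. HNF4A was 4.07-fold and 5.22-fold lower in the same order. FOXA2 was 3.97-fold lower in negative cells, and in positive cells its log2 difference was -0.75 ± 0.15 (adjusted p = 0.00109), short of 2-fold. PDX1 was 2.96-fold lower in negative cells and showed a log2 difference of -0.65 ± 0.24 in positive cells (adjusted p = 0.0354), where its libraries overlapped. GATA4 was at least 29.2-fold higher in SW1990 negative than in CFPAC-1 negative cells, with 3 reads per library as the floor for the latter. GATA6 was close in negative cells (log2 difference -0.19, 95% interval -0.44 to 0.06, adjusted p = 0.161) and 1.77-fold lower in SW1990 in positive cells.

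**Figure D4:**
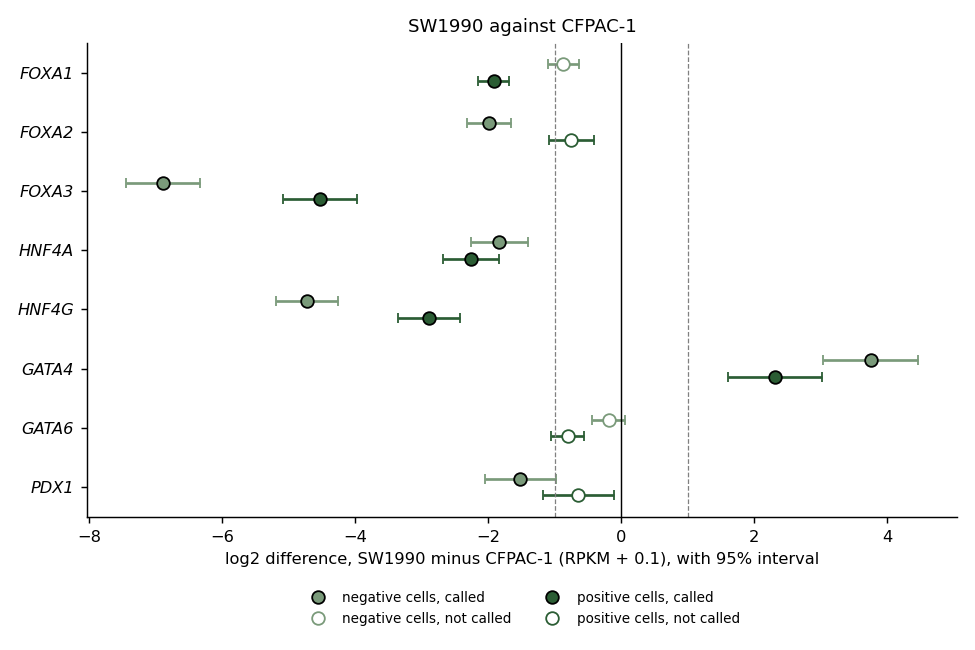
Log2 difference between SW1990 and CFPAC-1 (horizontal axis, SW1990 minus CFPAC-1, RPKM + 0.1) for each member in GCTM-5 negative and positive cells, with 95% intervals; filled points are called, open points are not, and dashed lines mark 2-fold. FOXA3 (-6.88 and -4.53) and HNF4G (-4.73 and -2.89) lie farthest to the left, and GATA4 (3.75 and 2.31) alone lies to the right. The plotted sizes of FOXA3 and GATA4 depend on the pseudocount.

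Ranked within a group, the members fell into different orders. In SW1990 negative cells FOXA1 (8.90 ± 1.19 RPKM) and GATA6 (8.02 ± 0.55) led and overlapped, followed by FOXA2, and then by PDX1 and GATA4, which overlapped. In CFPAC-1 negative cells FOXA3 (19.9 ± 5.76 RPKM), FOXA1, HNF4G and FOXA2 (13.4 ± 0.40) led, and neighbours in that order overlapped. In CFPAC-1 positive cells FOXA1 (25.5 ± 0.96 RPKM), FOXA2 (16.7 ± 1.42) and GATA6 (11.4 ± 1.34) led without overlap. FOXA3 was lowest in both SW1990 groups and GATA4 in both CFPAC-1 groups.

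The genes whose pattern over the 12 libraries was nearest to a member's were found among 13267 genes with a mean of at least 1 RPKM, by the root mean square difference of centred log2 values. Nearest to FOXA1 were HKDC1 (0.13), LYRM4 and MPP2, nearest to FOXA2 were SLC29A2 (0.11), PAQR7 and ANXA9, and nearest to GATA6 were ATPAF1 (0.10), FAM118B and B3GAT3. HNF4A was followed by LRRC20 (0.24), HPSE and DEPDC1B, and PDX1 by S100A6 (0.20), LOC100505865 and TMED3. FOXA3 had no close match, with CYP24A1 (0.38), NPY5R and KRT20 nearest, and HNF4G was nearest to LPAR6 (0.31), ACSL5 and SERPINA1. GATA4 had a mean under 1 RPKM and was not matched. The points share 12 libraries and 2 lines, so nearness is a description.

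Of 35 other transcription factors of endoderm and pancreas, 25 had a mean of at least 0.1 RPKM and were fitted. In SW1990 positive cells 3 were called higher and 5 lower, against 4.59% and 7.48% of all genes, with a median log2 difference of -0.32 over the 25 and -0.04 over all genes. The count of higher calls became 5 without SW1990 negative replicate 3 or SW1990 positive replicate 1 (EHF, an epithelial ETS factor, was then among them at 1.01 and 1.04). SPDEF, a factor of secretory epithelium, rose from 10.2 ± 2.5 to 58.9 ± 3.7 RPKM (log2 difference 2.54 ± 0.16), and HHEX, a homeobox factor of early foregut, fell from 57.0 ± 6.1 to 3.23 ± 0.62 RPKM (-4.11 ± 0.13, limma adjusted p = 1.48e-08). CREB3L1, a transcription factor of the secretory pathway (-3.08), also fell. In CFPAC-1 positive cells none was called higher and 4 were called lower, among them CREB3L1 (-2.13), NKX6-1 (-1.12) and FOXP2 (-1.11), against 5.65% and 4.13% of all genes, with a median of -0.20. The lower calls became 2 without CFPAC-1 negative replicate 1, and 2 genes, BHLHA15 (1.2) and ONECUT3 (1.10), were called higher without CFPAC-1 positive replicate 2. The CFPAC-1 call of NKX6-1, a homeobox factor of pancreatic progenitors and beta cells, was lost without CFPAC-1 negative replicate 1 (-0.95) or 3 (-0.93). It was also lost with a pseudocount of 1 and in voom on recovered reads. The CFPAC-1 call of FOXP2 was lost with a pseudocount of 1 or 0.01. HHEX was at 29.6 ± 2.5 and 26.6 ± 2.0 RPKM in CFPAC-1 negative and positive cells.

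GATA5, a further GATA factor of endoderm, held 3.41 ± 0.43 RPKM in SW1990 negative and 1.85 ± 0.17 RPKM in SW1990 positive cells, with no read in the 6 CFPAC-1 libraries.

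**Figure D5:**
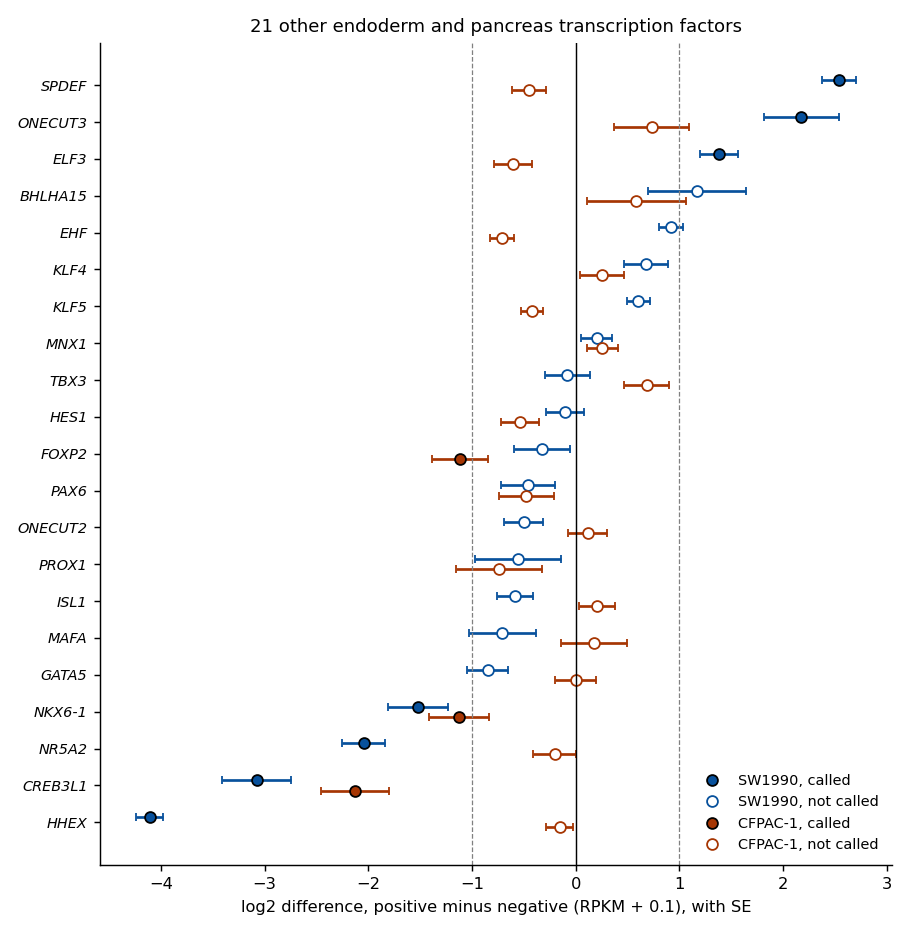
Log2 difference between GCTM-5 positive and negative cells (horizontal axis, RPKM + 0.1, with SE) of 21 of the 25 other endoderm and pancreas transcription factors that passed the filter, in SW1990 and CFPAC-1; filled points are called, open points are not, and dashed lines mark 2-fold. SPDEF (2.54) and HHEX (-4.11) mark the ends in SW1990, and CREB3L1 and NKX6-1 are called lower in both lines.

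Among 10 fitted of 17 gut patterning factors, 2 were called lower in SW1990 positive cells, among them MEIS1 (-1.33), a partner of homeodomain proteins, and SATB1, a chromatin organiser (-1.49), fell in CFPAC-1 positive cells. The median was -0.38 and -0.55. Without CFPAC-1 positive replicate 1 BARX1 was called higher in CFPAC-1 (1.24), and without CFPAC-1 positive replicate 3 CDX2 was called lower (-1.77). CDX2, the intestinal homeobox factor, was at 4.27 ± 0.21 RPKM in CFPAC-1 negative and 1.93 ± 1.28 RPKM in CFPAC-1 positive cells (adjusted p = 0.0549). Of 25 cofactors and competitors of the members, 24 were fitted. None was called higher and 5 were called lower in SW1990 positive cells, led by TLE4 (-2.52), a corepressor of forkhead proteins, and PPARGC1A (-2.35), a coactivator of HNF4A. In CFPAC-1, NR2F2, a nuclear receptor that shares sites with HNF4A, rose (1.01 ± 0.11) and TLE2 fell (-1.15). Beside these list counts, 4.59% of all genes were called higher and 7.48% lower in SW1990, and 5.65% and 4.13% in CFPAC-1. The call of NR2F2 was lost without CFPAC-1 negative replicate 2 (0.99), negative replicate 3 (0.99) or positive replicate 1 (0.90), and that of TLE2 without CFPAC-1 negative replicate 2 (-0.98) or 3 (-0.98). NR2F2 also lost its call after median centring, after quantile normalization and with a pseudocount of 1. That pseudocount also removed the calls of TLE2 in CFPAC-1 and of MEIS1 and PPARGC1A in SW1990. TLE1 was called higher in CFPAC-1 without CFPAC-1 negative replicate 1 (1.15), positive replicate 1 (1.03) or positive replicate 2 (1.02), and LMO2 lower without CFPAC-1 negative replicate 2 (-1.08) or positive replicate 3 (-1.22).

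Of 35 hepatic and enterocyte genes, among them known targets of HNF4A, 15 passed the filter. In SW1990 positive cells SERPINA1 was called higher and APOA1, DPP4, CLDN2 and CYP27A1 lower (median -0.10). In CFPAC-1 positive cells DPP4 was called higher and SERPINA1, CYP27A1, FGB and CDHR2 lower (median -0.60). The shares of all genes called higher and lower were 4.59% and 7.48% in SW1990 and 5.65% and 4.13% in CFPAC-1. SERPINA1, the secreted antiprotease alpha-1-antitrypsin, was at 229 ± 14 RPKM in CFPAC-1 negative and 63.4 ± 16 RPKM in CFPAC-1 positive cells (log2 difference -1.88 ± 0.20), while HNF4A rose and HNF4G fell there. In SW1990 positive cells it was at 14.1 ± 2.1 RPKM (1.02 ± 0.20 above negative cells), and that call was lost without SW1990 negative replicate 1 (0.83) or SW1990 positive replicate 2 (0.90). DPP4, a brush border peptidase, fell from 4.28 ± 0.65 to 0.426 ± 0.13 RPKM in SW1990 and rose from 2.01 ± 0.29 to 4.63 ± 0.38 RPKM in CFPAC-1. APOA1, the main protein of high density lipoprotein, fell from 19.8 ± 1.7 to 0.837 ± 0.34 RPKM in SW1990. FGB, the fibrinogen beta chain, was called lower in CFPAC-1 (-1.21), and lost that call without CFPAC-1 negative replicate 1 (-1.04), positive replicate 1 (-1.08) or positive replicate 3 (-0.86). CDHR2 (-1.06), a brush border cadherin, lost its call without any of 7 single libraries (SW1990 negative 3 and positive 1, all 3 CFPAC-1 negative, and CFPAC-1 positive 1 and 2), with values from -1.12 to -0.86. The CFPAC-1 lower count was thus 2 without CFPAC-1 negative replicate 1 or positive replicate 1. With a pseudocount of 1, SERPINA1 and CLDN2 lost their SW1990 calls, and DPP4, CYP27A1 and CDHR2 lost their CFPAC-1 calls. With a pseudocount of 0.01, FGB and CDHR2 lost theirs in CFPAC-1. Of the long noncoding RNAs beside the members, LINC00261, the neighbour of FOXA2, was at 0.171 ± 0.06 and 0.427 ± 0.04 RPKM in SW1990 and 0.0504 ± 0.05 and 0.248 ± 0.15 RPKM in CFPAC-1 and was called in neither line (adjusted p = 0.083 and 0.0368), but was called higher in CFPAC-1 without CFPAC-1 negative replicate 1 (1.41) or CFPAC-1 positive replicate 2 (1.59).

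The members lie apart in the genome. In GRCh37 coordinates, FOXA1 is at chr14:38058757-38065264 and FOXA2 at chr20:22561636-22566093, both on the minus strand. On the plus strand are FOXA3 at chr19:46367247-46377055, HNF4A at chr20:42984339-43061485, HNF4G at chr8:76320149-76479069, GATA4 at chr8:11534468-11617511, GATA6 at chr18:19749550-19782491 and PDX1 at chr13:28494137-28500450. Exons of other annotated genes covered little of them: at most 8.45% of the exon bases of GATA6, by a noncoding gene on the opposite strand. The longest identical stretch between paralog transcripts was 48 bases for FOXA1 and FOXA2, 29 bases for FOXA3 and either of them, and 17 bases for HNF4A and HNF4G and for GATA4 and GATA6. How reads that map to more than 1 place were counted, and whether strand was used, is not given in the sources used here.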

How the data were processed

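Reads of 12 polyA libraries were aligned by the authors to hg19/GRCh37, counted per gene with QuasR and divided by gene length and library size, and the authors deposited the resulting RPKM values. The annotation, the use of strand and the treatment of multi-mapping reads are not given in the sources used here, and bcl2fastq is named in the submitters' processing notes. From those values, log2(RPKM + 0.1) was fitted with limma 3.58.1 in R 4.3.3 (4 group means, trend, 2-sided) for the 16236 genes with a mean of at least 0.1 RPKM. TCC, with which the study tested for differential expression, was not used here. Whole reads were recovered from RPKM steps for all 19654 genes above 0, to within 0.01 of a read, and gave library totals of 9969697 to 26159330. The members and gene lists were chosen with earlier results of these data known. List genes are named by a rule, up to 4 called genes with the largest change per list and line, and GATA5, CDX2, LINC00261 and genes called only when 1 library was left out were named after their values were seen. Some list genes are counted but not reported by name here. The fit and the read recovery were tested on simulated data. Replicate numbers were not used to pair the samples in the main fit, and 2 libraries of a group never agreed within sampling noise. Promoters came from the RefSeq table and positions from GENCODE on GRCh37.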

Additional observations from a re-analysis of the deposited data

Results flagged for a closer look

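The change between GCTM-5 positive and negative cells differed between SW1990 and CFPAC-1 for 6 of the 8 members, by the interaction term of the limma fit (adjusted p under 0.05). On the log2 scale, as the SW1990 change minus the CFPAC-1 change, the differences were 2.35 for FOXA3, 1.84 for HNF4G, 1.24 for FOXA2, -1.05 for FOXA1, -1.44 for GATA4 and -0.62 for GATA6. The 2 changes behind each value rest on separate libraries: 0.80 in SW1990 and -1.56 in CFPAC-1 for FOXA3, 0.34 and -1.50 for HNF4G, 1.54 and 0.31 for FOXA2, -0.40 and 0.65 for FOXA1, -1.06 and 0.37 for GATA4, and -0.31 and 0.31 for GATA6. FOXA1 and GATA6 libraries did not overlap between the sorted fractions in either line and lay in opposite order in the 2 lines. The share of all genes that separate in this way was not counted. Within the lines, GATA6 did not pass an adjusted p of 0.05 (limma, 0.0656 in SW1990 and 0.0509 in CFPAC-1). The FOXA3 value in SW1990 rests on 2 to 8 reads per library and the GATA4 value in CFPAC-1 on 4 reads in 1 of 6 libraries. The GATA4 difference thus rests on its SW1990 change. Among all genes, 9.16% passed on the SW1990 side and 17.8% on the CFPAC-1 side.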

How the results depend on the processing

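No member changed direction under any alternative fit. Of the single member values under alternatives, 863 kept their side of the threshold, 16 gained a call and 28 lost one; the cause was not tested. The 2 members called in SW1990 became 1 with a pseudocount of 1. They became 1 with a mean of at least 1 RPKM, where only 7 members were fitted and GATA4 was not among them. With an adjusted p under 0.05 and no fold threshold 5 of 8 members were called, beside 4581 of 16236 genes. The SW1990 count ranged from 1 to 2 when single libraries were left out. The 5 members called in positive cells between the lines became 8 with the adjusted p alone, beside 10113 of 16236 genes. The other member counts (3 in CFPAC-1, 6 for the difference between lines, 6 in negative cells between the lines) stayed within 1.5 times. That limit still lets single calls be lost. HNF4A in CFPAC-1 lost its call with a pseudocount of 1, after median centring and after quantile normalization. For the difference between lines, GATA4 and GATA6 both lost theirs after median centring and after quantile normalization. The GATA4 difference held in 9 of 20 alternative settings. Over all genes, calls in SW1990 numbered 1961, and 1101 with a pseudocount of 1 or 4581 with the adjusted p alone; in CFPAC-1 1588, and 759 or 5929; in positive cells between the lines 4627, and 2965 or 10113; in negative cells 5993, and 11181 with the adjusted p alone; for the difference between lines 4374, and 2391 with a 2-fold threshold added. Of the CFPAC-1 calls 57.7% were higher in positive cells, and 45.8% after median centring. HNF4A between the lines in negative cells and GATA4 in positive cells (0.58) lost their calls with a pseudocount of 1, and the HNF4A difference between lines passed with it (-0.52, adjusted p = 0.0242). Same-numbered libraries deviated together weakly at most (correlations of 0.18, 0.02 and 0.12 in SW1990 and -0.02, 0.00 and -0.06 in CFPAC-1). Correlations of libraries with different numbers ran from -0.25 to 0.16 in SW1990 and from -0.03 to 0.04 in CFPAC-1. With the replicate block, 2 members were called in SW1990, 3 in CFPAC-1 and 6 for the difference between lines, as without it, and 1961, 1587 and 4130 genes; the block could not be fitted between the lines, since numbers are nested in a line. Depth limits FOXA3 in SW1990 and GATA4 in CFPAC-1, which rest on 0 to 8 reads a library.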

Other observations

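Genes known to mark tumour subtypes of pancreatic adenocarcinoma were described beside the members. Of 24 classical subtype genes, 13 were fitted; 7 were called higher and 1 lower in SW1990 positive cells (median log2 difference 1.60), and 2 higher and 1 lower in CFPAC-1 positive cells (median 0.18). In SW1990, CEACAM6, an adhesion molecule, rose from 14.6 ± 3.3 to 168 ± 76 RPKM and AGR2, a chaperone of mucin folding, from 4.75 ± 1.3 to 32.3 ± 12 RPKM, while TFF1, a trefoil peptide, had no read in negative cells and was at least 5.31-fold higher in positive cells, with 3 reads per library as the floor. In CFPAC-1, KRT20, an intestinal keratin, fell to 3.16 ± 1.2 RPKM (log2 difference -1.93 ± 0.37). The higher calls of ANXA10 and TFF1 in CFPAC-1 were each lost without CFPAC-1 negative replicate 1 (0.97 and 0.92), that of ANXA10 also without CFPAC-1 positive replicate 2 (0.95) and that of TFF1 also without CFPAC-1 positive replicate 3 (0.84), and CTSE was called higher there without CFPAC-1 negative replicate 2 (1.14). The CFPAC-1 calls of ANXA10 and TFF1 were also lost after median centring and after quantile normalization. That of ANXA10 was lost with a pseudocount of 0.01 too, and that of TFF1 with a pseudocount of 1 and in voom on recovered reads. TSPAN8, a tetraspanin, was the classical gene called lower in SW1990 (-2.15), a call lost with a pseudocount of 1. ANXA10 was also called lower in SW1990 without SW1990 negative replicate 2 (-1.01), and PLA2G10 in CFPAC-1 without CFPAC-1 positive replicate 2 (-1.56).

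Of 25 basal-like subtype genes, 24 were fitted; 14 were called higher and none lower in SW1990 positive cells (median 1.53), and 6 higher and 3 lower in CFPAC-1 positive cells (median 0.47). SPRR1B and SPRR3, cornified envelope proteins, rose by 5.30 and 4.84 on the log2 scale in SW1990 and by 1.88 and 3.05 in CFPAC-1, and KRT6A, a stress keratin, rose by 3.64 and 4.60. SERPINB4 (-3.13) and LEMD1 (-2.80) fell in CFPAC-1. Over all genes, 4.59% were called higher and 7.48% lower in SW1990 positive cells, and 5.65% and 4.13% in CFPAC-1 positive cells. When single libraries were left out, the classical genes called higher ranged from 6 to 7 for SW1990 and from 0 to 3 for CFPAC-1, and the basal-like genes from 13 to 15 and from 5 to 8 in the same order.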
